A study of Drosophila melanogaster with 4 samples.

Results

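The cyclins and mitotic kinases described here are 10 genes of the core cell cycle machinery of *Drosophila melanogaster*: CycE, Cdk1, CycA, CycB, CycB3, stg, polo, aurA, aurB and fzy. They were chosen by symbol, as the rows of the deposited transcript table that carry these names, and each gene was taken as the sum of its transcripts. The 10 genes hold 22 of the 30090 transcripts and are 10 of the 14029 genes of the table. All 10 passed the filter on low counts and were among the 11539 genes tested for a difference between genotypes.

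RNA was sequenced from whole larvae of the last instar, labelled male, of the Canton S wild type (+/+) and of an Inr-a duplication (pcf11/+), with 2 libraries of pooled larvae per genotype, raised at 25 °C. Inr-a, also named Pcf11, encodes a factor of pre-mRNA cleavage and transcription termination, and the duplication larvae carried an added copy of it. They had a Canton S mother and inherited the added copy from a father that carried it over a GFP-marked balancer (w[a]; Pcf11Dup/CyO GFP), the absence of GFP showing which larvae had it. Wild type larvae came from the Canton S stock itself. The added copy and the remaining chromosomes of the paternal stock therefore cannot be told apart in this comparison.

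The deposited values are the mean CPM of each genotype, that is, counts scaled to equal library totals. Whole counts of the separate libraries were recovered from these means, and library A is the deeper of each genotype, not a replicate number of the study. They are written wild type A and B and duplication A and B. Library totals ranged from 11304266 to 15423445 counts. Fold changes were fitted by limma to TMM-scaled CPM on the log2 scale, after 0.5 CPM was added, where TMM scaling evens out the bulk of genes between libraries, and a gene was called at an adjusted p below 0.05 over all genes tested. Inr-a had 758 and 656 counts for wild type A and B against 1285 and 1338 counts for duplication A and B. Its ratio of mean CPM was 1.51, with an adjusted p = 0.179 in limma, so the gene that defines the genotypes was itself not called.

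Progress through the cell cycle depends on cyclin-dependent kinases, which act only when bound to a cyclin. Cyclin E with its kinase drives entry into DNA replication, including the endocycles of polytene larval tissues, while Cdk1 with the A and B cyclins drives mitosis once the phosphatase String has removed its inhibitory phosphates. Polo and the Aurora kinases build the spindle and align the chromosomes, and Fizzy then directs the anaphase-promoting complex (APC/C) to destroy the mitotic cyclins. In a larva the mitotic cells lie mainly in the imaginal discs, the brain and the gonads. In whole-larva RNA, fewer cells of a type and less RNA per cell cannot be told apart.

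None of the 10 genes was called in either direction by limma. Of all genes tested, 1.73% were called higher and 0.503% were called lower. At an unadjusted p below 0.05, 1 of the 10 genes was higher (stg) and 0 were lower, against 12.2% and 8.62% of all genes tested. With library size in place of TMM, the unadjusted balance of all genes turned from 1405 higher and 995 lower to 1076 higher and 1166 lower. Weighting the counts by limma voom called 0 of the 10 genes as well, with stg again the only gene at an unadjusted p below 0.05.

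The fold changes of the 10 genes lay on both sides of 0, with 5 above it (stg, Cdk1, CycE, CycA and polo) and 5 below it (aurA, CycB3, CycB, aurB and fzy). They ranged from -0.48 for aurA to 0.78 for stg on the log2 scale, with a median of -0.01, while the median over all genes tested was 0.02. The median size of the log2 fold change, regardless of direction, was 0.34 both for the 10 genes and for all genes tested. In CPM, 1 of the 10 genes (stg) had both duplication libraries over both of wild type, against 22.9% of all genes tested. In 3 of the 10 genes (CycB, CycB3 and aurA) both duplication libraries lay under wild type, against 30.3% of all genes tested. After TMM scaling, the groups did not overlap for 2 of the 10 genes in the upward direction (stg and polo, against 27.0% of all genes) and for 2 in the downward direction (CycB and aurA, against 26.7%). These shares of the 10 genes were near or under those of all genes tested.

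**Figure D1:**
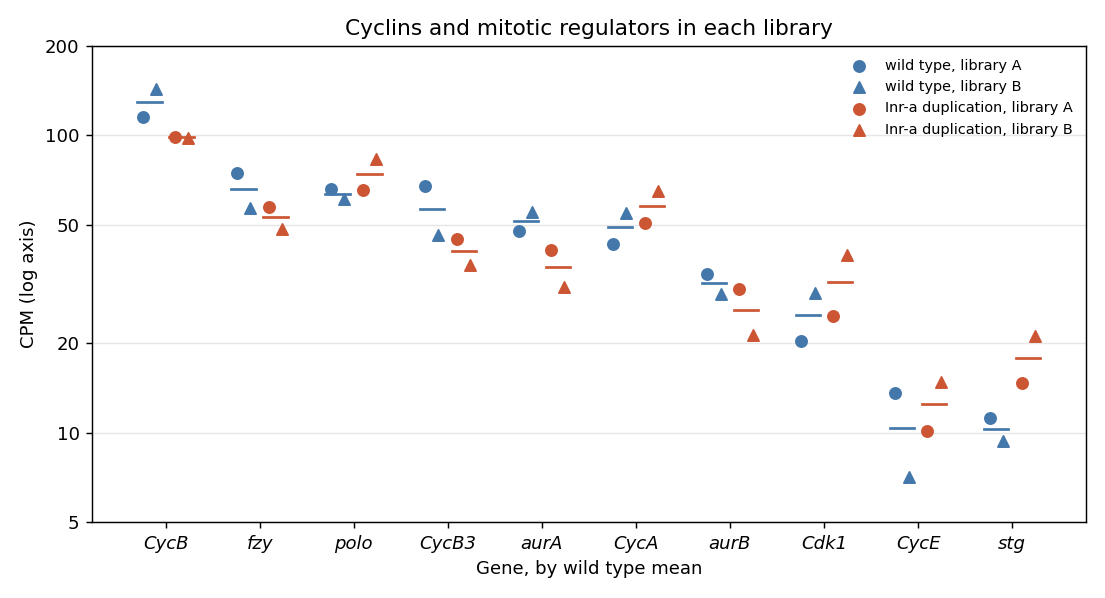
CPM of each of the 10 genes in the 4 libraries, on a log axis, with genes ordered by their wild type mean. Points are libraries (circles for library A, triangles for library B), short lines are genotype means, and stg is the gene whose duplication libraries (14.7 and 21.1 CPM) both lie above its wild type libraries (11.2 and 9.38 CPM).

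Cyclin E is the G1 to S cyclin of the set. Its gene (CycE, FBgn0010382) occupies the reverse strand of chromosome 2L from 15727581 to 15748150 in BDGP6.54. Counts were 171 and 80 for wild type A and B against 156 and 209 for duplication A and B. Wild type library A held nearly as much CycE, at 13.6 CPM, as duplication library B at 14.8 CPM, while wild type library B held 7.08 CPM, so the groups overlapped. Mean levels were 10.3 ± 4.62 CPM in wild type against 12.5 ± 3.34 CPM in the Inr-a duplication (SD, n = 2 each). In log2 terms the change was 0.33 (standard error, SE, 0.32), with an adjusted p = 0.566 from limma. It was -0.13 without wild type B and 0.14 without duplication B, and the ratio of mean CPM was 0.978 without duplication B and 0.863 for the most abundant transcript alone, so no direction held for CycE. A pair of noncoding genes on the opposite strand share 98 and 150 exonic bases with CycE, and whether the libraries keep the strand is not given in the sources used here.

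Cdk1 (FBgn0004106), the catalytic partner of the mitotic cyclins, lies on the reverse strand of chromosome 2L from 10384739 to 10386262. It had 256 and 333 counts for wild type A and B against 381 and 557 counts for duplication A and B. As CPM these are 20.4 and 29.5 against 24.7 and 39.5, so duplication library A lay between the wild type libraries and library B above both. On the log2 scale the estimate was 0.38 (SE 0.28), with an adjusted p = 0.454 from limma. The ratio of mean CPM was 0.991 without duplication B. The log2 fold change rested on single libraries of both genotypes, at 0.11 without duplication B, 0.12 without wild type A, 0.62 without wild type B and 0.62 without duplication A.

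Cyclin A, which is needed for entry into mitosis in the fly, is encoded by CycA (FBgn0000404) on chromosome 3L, reverse strand, from 11826719 to 11833578. Its counts were 541 and 622 for wild type A and B against 783 and 914 for duplication A and B. As CPM these are 43.1 and 55.0 against 50.8 and 64.9, so wild type B lay between the duplication libraries. Mean levels were 49.1 ± 8.45 CPM in wild type against 57.8 ± 9.99 CPM in the Inr-a duplication (SD, n = 2 each). Its log2 fold change of 0.27 (SE 0.26) had an adjusted p = 0.578 from limma. It was 0.09 without wild type A and 0.16 without duplication B.

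Cyclin B is the most abundant cyclin of the set. CycB (FBgn0000405) sits on chromosome 2R, reverse strand, from 22803521 to 22806948. Counts were 1444 and 1622 for wild type A and B against 1525 and 1382 for duplication A and B. The duplication libraries were nearly equal, at 98.9 and 98.1 CPM, and lay below the wild type libraries at 115 and 143 CPM. That gives a ratio of mean CPM of 0.762. The log2 fold change of -0.35 (SE 0.26) had an adjusted p = 0.447 from limma, and its 95% interval ran from -0.89 to 0.19. With a library left out, the estimate ran from -0.51 to -0.21, the smallest in size without wild type B.

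Cyclin B3, the third mitotic cyclin, acts at anaphase. CycB3 (FBgn0015625) is a gene without introns in its deposited transcripts, on chromosome 3R, reverse strand, from 24867934 to 24870816. It had 847 and 521 counts for wild type A and B against 693 and 516 counts for duplication A and B. In CPM the duplication libraries, at 44.9 and 36.6, lay below the wild type libraries, at 67.4 and 46.1. With TMM scaling the groups overlapped, since duplication library A (47.7 scaled CPM) came above wild type library B (45.5 scaled CPM). The log2 fold change was -0.42 (SE 0.28), with an adjusted p = 0.38 from limma, and it was -0.15 without wild type library A and -0.71 without wild type library B.

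String, the Cdc25 phosphatase that activates Cdk1, had the largest log2 fold change of the set in size. Its gene (stg, FBgn0003525) sits on chromosome 3R, reverse strand, from 29251826 to 29255800. Counts were 141 and 106 for wild type A and B against 226 and 297 for duplication A and B. Mean levels were 10.3 ± 1.31 CPM in wild type against 17.9 ± 4.55 CPM in the Inr-a duplication (SD, n = 2 each), which gives a ratio of 1.73. In log2 terms the change was 0.78 (SE 0.29) and its unadjusted p = 0.0123 in limma's fit across all genes. Adjusted over all genes tested this became an adjusted p = 0.137, so stg was not called. Of the genes tested, 93.0% had a lower log2 fold change than stg, which places it among the higher values but not at the extreme. With a library left out it ran from 0.59 to 0.95 on the log2 scale.

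Polo (polo, FBgn0003124) is the founding member of the Polo-like kinases and occupies the forward strand of chromosome 3L from 20309654 to 20313466. Its counts were 829 and 692 for wild type A and B against 1013 and 1172 for duplication A and B. Duplication library A (65.7 CPM) was just under wild type library A (66.0 CPM), while library B (83.2 CPM) was the highest of the 4. TMM scaling put both duplication libraries above wild type, at 69.7 and 80.1 against 65.4 and 60.4 scaled CPM. On the log2 scale the estimate was 0.25 (SE 0.26), with an adjusted p = 0.601 from limma. It was 0.15 without duplication B.

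Aurora A acts at centrosomes, and aurA (FBgn0000147) occupies the forward strand of chromosome 3R from 11963124 to 11964826. It had 598 and 626 counts for wild type A and B against 636 and 437 counts for duplication A and B. Both duplication libraries, at 41.2 and 31 CPM, lay below the wild type libraries, at 47.6 and 55.4 CPM, under either scaling. Mean levels were 51.5 ± 5.49 CPM in wild type against 36.1 ± 7.22 CPM in the Inr-a duplication (SD, n = 2 each), which gives a ratio of 0.702. Its log2 fold change was -0.48 (SE 0.27), with an adjusted p = 0.303 from limma. The size rests on duplication library B, since the log2 fold change was -0.21 without that library and -0.77 without library A. The gene CG12213 on the opposite strand shares 153 exonic bases with aurA, out of 1577 in the aurA transcript. The ratio of CG12213 was 1.27, on the other side of 1 from aurA.

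Aurora B, the kinase of the chromosomal passenger complex, is encoded by aurB (FBgn0024227) on the reverse strand of chromosome 2L from 10856797 to 10858094. Counts were 431 and 331 for wild type A and B against 469 and 301 for duplication A and B. As CPM, duplication library A (30.4) lay between the wild type libraries (34.3 and 29.3), and library B (21.4) lay below both. Its log2 fold change of -0.28 (SE 0.28) had an adjusted p = 0.589 from limma. Without duplication library B it was 0.04, so the direction rests on that library.

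Fizzy, the Cdc20 activator of the APC/C, is encoded by fzy (FBgn0001086) on the forward strand of chromosome 2L from 16310956 to 16313097. It had 937 and 645 counts for wild type A and B against 888 and 684 counts for duplication A and B. Duplication library A (57.6 CPM) lay just above wild type library B (57.1 CPM), so the groups overlapped, with means of 65.8 ± 12.4 and 53.1 ± 6.37 CPM (SD, n = 2 each). In log2 terms the change was -0.27 (SE 0.27), with an adjusted p = 0.581 from limma. It was -0.07 without wild type A and -0.08 without duplication B, against -0.48 without either of the other libraries. The gene cact on the opposite strand shares 62 exonic bases with fzy and had a ratio of 1.35.

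**Figure D2:**
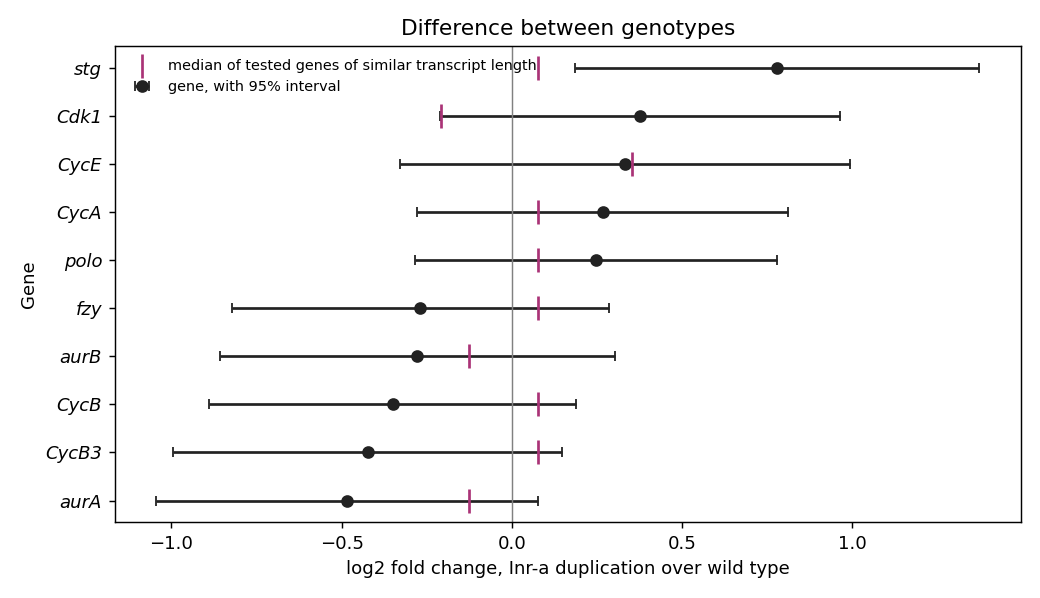
Log2 fold change of the Inr-a duplication over wild type for the 10 genes, with 95% intervals from limma (bars), and the median log2 fold change of tested genes in the same group by transcript length (purple ticks). Only the interval of stg, from 0.19 to 1.37, lies on a single side of 0.

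The spread between libraries of a genotype was of the same size as the differences between genotypes. On the log2 scale of scaled CPM, wild type A and B differed by 0.11 for polo to 0.90 for CycE, and the duplication libraries by 0.15 for CycB to 0.64 for aurB. For 7 of the 10 genes the larger of these gaps exceeded the difference between the genotype means, against 62.3% of all genes tested. The exceptions were CycB, stg and polo. The median gap was 0.33 within wild type and 0.39 within the Inr-a duplication for the 10 genes, and 0.29 within each genotype for all genes tested. The 95% intervals of the fold changes were wide, and that of Cdk1, for example, ran from a 0.863-fold to a 1.95-fold level and that of aurA from 0.485-fold to 1.05-fold.

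Differences between genotypes in these data vary with transcript length, and the 10 genes were placed on that scale. In 4 groups of tested genes by the length of the longest transcript, the median log2 fold change was -0.21 in the shortest, -0.13 in the next, 0.08 in the third and 0.35 in the longest. Cdk1, with 1082 bases, lies in the shortest group, 0.38 against its median of -0.21. Both Aurora genes, with 1577 and 1183 bases, lie in the next group, where aurA at -0.48 and aurB at -0.28 were below the median of -0.13. CycA, CycB, CycB3, stg, polo and fzy lie in the third group, from 1863 to 3118 bases, and lie on both sides of its median. CycE, at 0.33, lay close to the median of the longest group. The part of length in these differences was not tested.

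With the CPM of each transcript divided by its length, the summed levels of the 10 genes kept the same ends of their order in both genotypes. CycB was highest, at 49.1 ± 7.66 CPM per kilobase (SD, n = 2) in wild type and 37.4 ± 0.206 in the Inr-a duplication, above the next gene in every library. CycE was lowest, at 2.84 ± 1.28 and 3.43 ± 0.906 CPM per kilobase, and stg was next to it, at 3.96 ± 0.480 and 6.84 ± 1.71 CPM per kilobase. CycE and stg overlapped in wild type and were separate in the Inr-a duplication. The other 7 genes lay between 18.1 and 33.0 CPM per kilobase on average in wild type and between 16.0 and 29.7 in the Inr-a duplication. By mean level Cdk1 held rank 6 in wild type and rank 2 in the Inr-a duplication, while fzy held ranks 2 and 4 and aurA ranks 3 and 5. Most neighbours in the order overlapped between libraries, the exceptions in wild type being CycB over fzy, aurA over aurB and CycA over stg. In the Inr-a duplication the exceptions were CycB over Cdk1, CycA over CycB3, CycB3 over stg and stg over CycE.

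Ratios between genes of the same library do not depend on the scaling of that library. The 9 ratios to Cdk1, and 5 ratios between genes of like role, were chosen with the levels of the genes known, computed in each library and not tested. Of the 9 ratios to Cdk1, 2 were lower in both duplication libraries than in both of wild type (CycB and aurA) and 0 were higher, while 34.7% of all other genes tested were lower and 6.41% were higher relative to Cdk1. Of the other 5 ratios, 3 were lower (aurA and aurB to polo, CycB to CycA), 1 was higher (stg to CycE) and 1 overlapped. Relative to polo 40.4% of all other genes tested were lower, relative to CycA 38.9% were lower, and relative to CycE 7.49% were higher, so lower ratios to these genes were common in the table. The count of CycB was 5.64 and 4.87 times that of Cdk1 for wild type A and B against 4.0 and 2.48 times for duplication A and B. Relative to CycA, CycB stood at 2.67 and 2.61 in wild type and at 1.95 and 1.51 in the Inr-a duplication, with wild type libraries close to each other. The balance of CycA to Cdk1 overlapped, at 2.11 and 1.87 in wild type and 2.06 and 1.64 in the Inr-a duplication. Both A-type and B-type cyclins bind Cdk1, so these values describe the transcripts of the partners, not their complexes.

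Among the kinases, the count of aurA relative to polo was 0.721 and 0.905 for wild type A and B against 0.628 and 0.373 for duplication A and B. For aurB relative to polo it was 0.520 and 0.478 in wild type and 0.463 and 0.257 in the Inr-a duplication. In both ratios library A of the Inr-a duplication lay near wild type and library B lay far below it. The count of aurA relative to Cdk1 was also lower in the Inr-a duplication, at 1.67 and 0.785 against 2.34 and 1.88. The only ratio that was higher was stg to CycE, at 1.45 and 1.42 in the Inr-a duplication against 0.825 and 1.33 in wild type. Wild type B lay near the duplication libraries, so the size of this difference rests on wild type A. That library held 171 counts of CycE against 80 in wild type B.

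**Figure D3:**
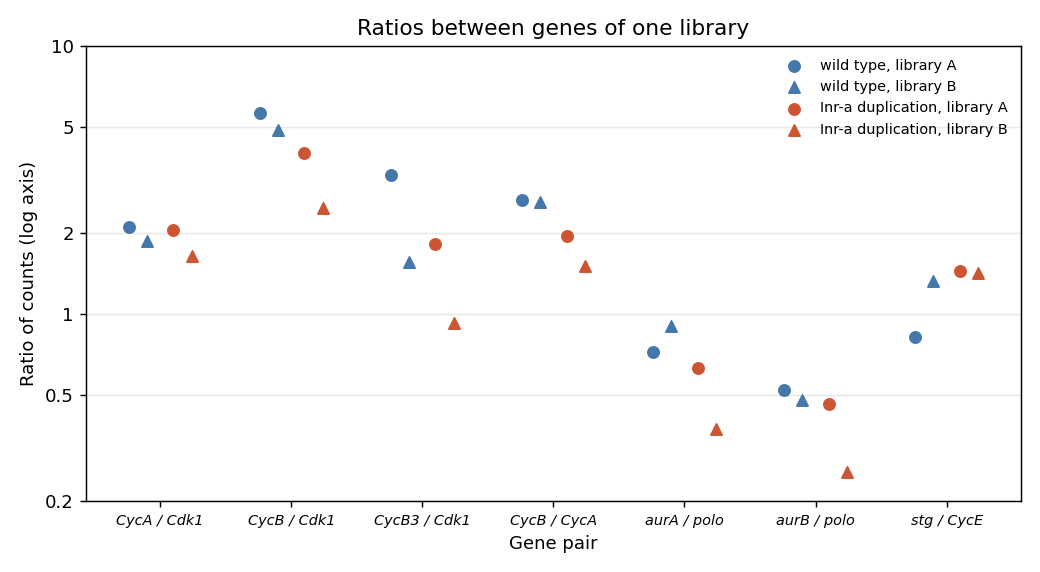
Ratio of the counts of gene pairs within each library, on a log axis, for 7 of the 14 ratios computed. CycB to CycA and CycB to Cdk1, aurA to polo and aurB to polo are lower in both duplication libraries, and duplication library B is the lowest point of each of these pairs.

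Pcf11 acts where transcripts are cut and polyadenylated, so the transcripts of each gene were also taken apart by the annotated length of their 3′ untranslated region (3′ UTR). Of the 10 genes, 6 have several deposited transcripts and 5 of these differ in 3′ UTR length. The share of counts on the shorter form was computed per library, with a 95% Wilson interval that covers counting error only. Salmon divides reads among overlapping transcripts by a model, so these shares carry an error beyond counting that was not measured.

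The CycA transcripts have 3′ UTRs of 569 and 933 bases, the same 5′ UTR length and coding parts that differ by 3 bases. The shorter form held 60.3% (95% interval 56.1 to 64.3) and 45.8% (41.9 to 49.7) of counts in wild type A and B. In duplication A and B it held 65.5% (62.1 to 68.8) and 60.3% (57.1 to 63.4). Duplication B and wild type A had the same share after rounding, so the groups touched. By transcript, the ratio of mean CPM was 1.41 for the shorter form and 0.922 for the longer form.

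CycB3 has 3′ UTRs of 445 and 867 bases on an otherwise equal transcript. The shorter form held 80.2% and 86.8% of counts for wild type A and B against 82.8% and 67.4% for duplication A and B. Library A of the Inr-a duplication lay between the wild type libraries and library B lay below both. The longer form stood at a mean of 9.74 CPM in wild type and 9.82 CPM in the Inr-a duplication, and the shorter form at 47.0 and 31 CPM.

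The polo transcripts have 3′ UTRs of 330 and 593 bases and also differ in their 5′ UTRs, of 263 and 656 bases. The shorter form held 74.4% and 64.9% for wild type A and B against 74.6% and 58.1% for duplication A and B. The highest and the lowest share both came from the Inr-a duplication. For stg the shorter 3′ UTR belongs to a minor transcript with a longer 5′ UTR, with 20 and 0 counts for wild type A and B against 22 and 64 counts for duplication A and B. The 0 allows up to 0.265 CPM at 3 counts. CycE, with 3′ UTRs of 1097 and 1300 bases, had between 69.9% and 77.5% of its counts on the shorter form in the 4 libraries, and the intervals of all 4 overlapped.

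**Figure D4:**
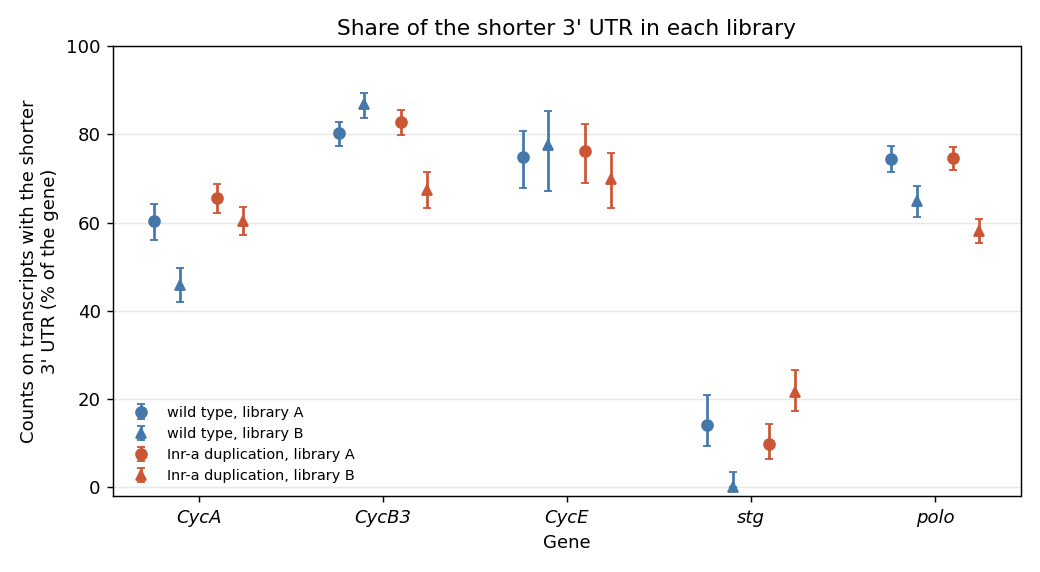
Share of the counts of a gene assigned to transcripts with its shorter annotated 3′ UTR, in percent, for the 5 genes with more than a single 3′ UTR length. Points are libraries and bars are 95% Wilson intervals. The shares of CycA are 65.5% and 60.3% in the Inr-a duplication and 60.3% and 45.8% in wild type, and those of the other genes overlap between genotypes.

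CycB was carried almost wholly by transcript FBtr0071911, with between 95.9% and 99.2% of its counts in each library. A minor form, FBtr0309858, differs from it by 6 coding bases and had 6 and 20 counts for wild type A and B against 57 and 39 counts for duplication A and B. Its share of CycB was 0.416% (95% interval 0.191 to 0.904) and 1.23% (0.80 to 1.90) in wild type, and 3.74% (2.90 to 4.81) and 2.82% (2.07 to 3.83) in the Inr-a duplication. These intervals do not overlap between genotypes, but they cover counting error within a library only. They leave out the spread between libraries and the error of dividing reads between forms that differ by so little. How often such intervals separate over all transcripts was not computed. Among the CycE transcripts, FBtr0305561 had 29 counts and FBtr0080776 had 6 counts in duplication library B and both had 0 in the other 3 libraries. FBtr0080773 had 28, 18 and 23 counts in those other libraries and 0 in duplication library B. Fitted by transcript with limma, an alternative chosen after seeing the data, 18 transcripts of the 10 genes could be tested and 0 were called. None had an unadjusted p below 0.05, and the lowest adjusted p = 0.442. The CycB form FBtr0309858 had a log2 fold change of 1.33 (SE 0.63), with an adjusted p = 0.484 from limma. The shares of all transcripts called or at a low p in this fit were not computed, so these counts have no background beside them.

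The surrounding pathway was described with 5 lists, by counts and medians alone. Among 17 CDK partners and regulators, 0 were called, and the median log2 fold change was 0.01, with 10 above 0 against 51.5% of all genes tested. At an unadjusted p below 0.05, 4 of them were higher and 1 was lower, beside 12.2% and 8.62% of all genes tested. The lowest p belonged to CycG, a cyclin with roles in growth and meiotic repair, with a ratio of 1.78 and an adjusted p = 0.102 from limma. It was followed by CycD, the growth-linked partner of Cdk4, with 57 and 76 counts for wild type A and B against 138 and 184 counts for duplication A and B (adjusted p = 0.105 from limma). For both genes the duplication libraries lay above both of wild type in CPM, as they did for 22.9% of all genes tested. Both were named for their low p within the list.

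Of the 17 APC/C subunits, activators and substrates, 16 were found by symbol and 15 were tested, with 0 called and a median of 0.04. At an unadjusted p below 0.05, 1 of them was lower, beside 8.62% of all genes tested. The subunit gene Cdc23 had the lowest p of that list, with a ratio of 0.654 and an adjusted p = 0.239, followed by Rca1, an APC/C inhibitor, with a ratio of 0.691 and an adjusted p = 0.275 from limma. The 14 spindle checkpoint and chromosomal passenger genes had 0 called, 0 at an unadjusted p below 0.05 and a median of -0.11. Of this list 9 lay below 0 and 5 above, beside 48.5% of all genes tested below 0. Its lowest p values were those of bora, an activator of Aurora A, with a ratio of 0.692 (adjusted p = 0.294 from limma), and Incenp, the scaffold that holds Aurora B, with a ratio of 0.715 (adjusted p = 0.323 from limma). Both genes were named for their low p within this list, and neither was called.

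Spindle and cytokinesis effectors were tested for 16 of 17 genes, with 0 called, 0 at an unadjusted p below 0.05 and a median of -0.06. Here asp, a spindle pole protein, had a ratio of 1.44 (adjusted p = 0.248 from limma), and cid, the centromeric histone, had a ratio of 0.578 (adjusted p = 0.253 from limma). The 9 E2F and dREAM regulators, which control the transcription of cell cycle genes, had the highest median of the 5 lists, 0.44. Of the 9, 6 lay above 0 and 3 below, beside 51.5% of all genes tested above 0. In this list 0 were called and 2 were higher at an unadjusted p below 0.05, beside 12.2% of all genes tested. Dp, the partner of E2F, had a ratio of 1.57 (adjusted p = 0.160 from limma). E2f1, which activates S phase genes, had a ratio of 1.74 (adjusted p = 0.206 from limma), but its duplication libraries stood at 25.2 and 59.8 CPM against 26.8 and 22.1 CPM in wild type. Duplication A lay between the wild type libraries, so that value rests on duplication B.

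**Figure D5:**
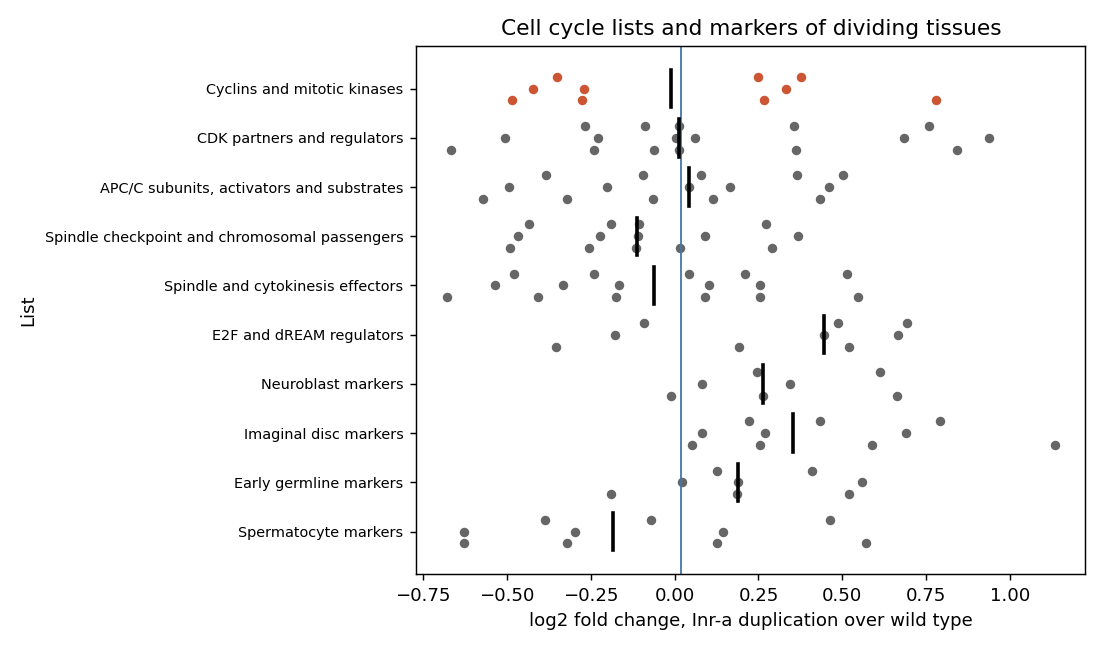
Log2 fold change of the Inr-a duplication over wild type for each tested gene (points) of the 10 genes (orange), the 5 pathway lists and 4 lists of tissue markers. Black bars are list medians and the blue line is the median of all genes tested, 0.02. The 10 imaginal disc markers all lie above 0 and the list medians run from -0.18 for spermatocytes to 0.44 for the E2F and dREAM regulators.

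Markers of tissues that hold dividing cells were measured beside these genes. Like the pathway lists, they were set against all genes tested, not against genes of similar transcript length. All 10 imaginal disc markers had a log2 fold change above 0, from 0.05 to 1.13, with a median of 0.35 and 0 called, where 51.5% of all genes tested lay above 0. At an unadjusted p below 0.05, 4 of them were higher, beside 12.2% of all genes tested. Their summed level was 80.2 and 62.8 CPM for wild type A and B against 91.5 and 103 CPM for duplication A and B. The most abundant were ap, with a ratio of 1.47, and hh, with a ratio of 1.04. The 7 neuroblast markers had a median of 0.26, with 6 above 0, 0 called and 1 higher at an unadjusted p below 0.05, and summed to 126 and 112 CPM in wild type and 132 and 196 CPM in the Inr-a duplication. Within that list the most abundant genes were brat, with a ratio of 1.60, and pros, with a ratio of 1.52. They also had the highest log2 fold changes of the list, 0.66 and 0.61, while the others ran from -0.01 (mira) to 0.34 (wor). For pros, duplication A (18.2 CPM) lay between the wild type libraries (26.5 and 12.1 CPM), so its ratio rests on duplication B (40.4 CPM). The medians of both lists lay above 0, while the 10 genes were split, with 5 above 0 and 5 below.

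The gonad was covered by 2 lists. Of the 8 early germline markers 7 lay above 0, beside 51.5% of all genes tested. Their median was 0.19, with 0 called and 0 at an unadjusted p below 0.05. The sum of this list ran from 38 to 43.0 CPM in wild type and from 37.2 to 51.8 CPM in the Inr-a duplication. Its most abundant genes were bgcn, with a ratio of 0.854, and ovo, with a ratio of 1.63, and both overlapped between genotypes. For ovo, duplication A (5.64 CPM) lay between the wild type libraries (6.69 and 5.57 CPM), so its ratio rests on duplication B (14.3 CPM). The 10 spermatocyte markers had a median of -0.18, with 6 below 0, 4 above, 0 called and 2 lower at an unadjusted p below 0.05 (8.62% of all genes tested), and summed to 179 and 159 CPM in wild type and 149 and 175 CPM in the Inr-a duplication. Among them bol had a ratio of 1.38 and topi a ratio of 0.748.

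Tissues that grow by endocycles could be followed only in part, since most of their markers are too abundant for counts per library to be recovered. Of 8 salivary gland markers 2 were tested and 0 were called. Sgs1 stood at 519 and 101 CPM for wild type A and B against 282 and 519 CPM for duplication A and B, so the groups overlapped, with duplication A between the wild type libraries. The ratio of ng2 was 2.57, with 1 of the 2 genes higher at an unadjusted p below 0.05, beside 12.2% of all genes tested. Of 7 fat body markers only apolpp was tested, and it was called higher, as were 1.73% of all genes tested. It had 225 and 188 CPM for wild type A and B against 419 and 1019 CPM for duplication A and B (log2 fold change 1.70, adjusted p = 0.00323 from limma). No marker of the 6 lists was at 0 in all libraries. The part of tissue makeup in the values of the 10 genes was not tested.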

How the data were processed

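Reads were trimmed with Trimmomatic and assigned to Ensembl transcripts of BDGP6 with Salmon 1.4.0 by the authors, who deposited CPM as the mean of both libraries of a genotype, beside their own ratio, which was not used here. Each deposited mean is the average of 2 whole counts, each scaled by its library total. The totals were fitted from the low values, and exactly 1 pair of counts matched 99.4% of wild type and 99.7% of Inr-a duplication transcripts above 0, with 0 transcripts lacking a pair. The 129 genes with a transcript of several pairs, which hold 39.1% and 39.4% of the CPM, were left out of tests. All transcripts of the 10 genes had 1 pair.

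Recovered counts were summed by symbol. A gene was tested where at least 2 libraries reached 10 counts, taken at the median depth, and where the total was at least 15. The test was limma 3.58.1 (R 4.3.3, trend, two-sided) on the TMM-scaled log2 CPM with a pseudocount of 0.5, and p-values were adjusted by Benjamini-Hochberg at a threshold of 0.05. TMM factors ran from 0.942 to 1.04. The pipeline was tested on simulated data. With 2 libraries per genotype an exact permutation test cannot give a two-sided p below 0.333. The limma p-values rest on the spread between these pooled libraries, drawn in large part from all genes tested (23.8 total degrees of freedom).

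Positions, transcript lengths and overlaps were taken from BDGP6.54 as annotated by Ensembl in release 115, newer than the one used by the authors. There, 29964 of the 30090 transcript identifiers were found. Pathway and marker lists, like the 10 genes, were chosen with earlier results of these data known. The text names all 10 genes, for each pathway list the called genes or else the 2 of lowest p, and for each marker list the 2 of highest CPM. The number of sample columns left unmapped was 0. Other steps used Python 3.11.15, pandas 2.3.3, numpy 2.4.6, scipy 1.17.1 and matplotlib 3.10.9.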

Additional observations from a re-analysis of the deposited data

How the results depend on the processing

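None of the 10 genes was called under any alternative run: library size or median-of-ratios scaling, no filter or a filter of 50 counts, pseudocounts of 0.1 and 2 CPM, limma voom, a fit by transcript (chosen after seeing the data), and each library left out in turn, where the numbers of them called higher and lower both stayed at 0. The median log2 fold change of the 10 genes ran from -0.17 to 0.08 with a library left out. No paired analysis was possible because the recovered counts carry no replicate numbers. With all 4 libraries, the log2 fold change of each gene kept its direction, but the ratio of CycE was 0.863 on its most abundant transcript alone. With a library left out, the log2 fold change of CycE turned to -0.13 without wild type library B and that of aurB to 0.043 without duplication library B. Without duplication library B the ratios of mean CPM of Cdk1 and CycE were 0.991 and 0.978. The lowest adjusted p of any of the 10 genes was 0.0922, without duplication library A.

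Over all genes, 200 were called higher and 58 lower. With library size only these became 59 and 17, and without a filter on low counts 45 and 14. The cause was not tested. Leaving out a library gave from 87 to 542 higher and from 33 to 489 lower: 87 and 33 when duplication library B was left out, 542 and 489 when duplication library A was, 440 higher without wild type library A, and 37 lower without wild type library B. With 2 libraries per genotype, standard errors ran from 0.26 to 0.32 on the log2 scale.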
